A study of Homo sapiens with 7 samples.

Results

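The comparison set the PAPα and PAPγ double knockdown (double KD, labelled siPAPag) against the control siRNA (siCtrl) in HEK293 cells, a transformed line from human embryonic kidney. Both libraries were chosen by their labels, and they are 2 of the 7 libraries of the series. In the double KD, siRNAs against PAPα and PAPγ were given together, and siCtrl cells received a control siRNA. PASS reads, the reads that end in a poly(A) tail and so mark a cleavage and polyadenylation site (PAS), were counted in both with the 3′READS protocol. The remaining libraries were siPAPα, siPAPγ and siStarPAP of batch 1, which share this siCtrl, and siCtrl and siStarPAP of batch 2, which were made with 3′READS+. Each side held 1 library, so the ratios below have no replicate check, no p-value was computed from the pair, and intervals cover counting error only. The labels name a batch only for siCtrl and siStarPAP of batch 2. Batch 1 is the name used here for siCtrl, siPAPα, siPAPγ and siStarPAP, which were counted together and carry no batch label. The labels name no batch for the double KD either.

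PAPα and PAPγ are the canonical nuclear poly(A) polymerases, which add the tail once the nascent RNA has been cut. The cut is placed by the cleavage and polyadenylation machinery: CPSF reads the hexamer AAUAAA or a variant of it shortly before the site, and CstF, CFI and CFII bind around it. Star-PAP, encoded by TUT1, is a non-canonical nuclear polymerase that processes other transcripts. Most genes carry several PASs, in introns and upstream exons or in tandem along the 3′-most exon, and the use of one over another is termed alternative polyadenylation (APA).

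The table held 7974234 sense reads for siCtrl and 10888366 for the double KD, at 44595 PASs in 14547 genes, and RPM below is the number of reads of a gene or PAS per 1000000 of these. The other libraries had between 2347192 and 16191098 sense reads. Reads were seen for 13933 genes in siCtrl and for 13688 in the double KD. PASs with reads numbered 38108 in siCtrl and 34904 in the double KD, fewer in the deeper library. The most-read gene was RPLP1, a protein of the ribosomal stalk, with 2.49% of the reads in siCtrl and 4.85% in the double KD. Library siCtrl of batch 2 stood apart from siCtrl of the pair, and among 9890 genes with a value in both, 5698 (57.6%) differed by over 2-fold. These libraries differ in batch and in protocol, which cannot be told apart. Gene counts, gene lists, the share of upstream reads and 3′UTR-APA are therefore also given with siCtrl of batch 2, as is the level of a named gene where stated. PAS classes and UR-APA were read against siCtrl of the pair alone.

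PAPOLA, which encodes PAPα, was lower in the double KD, with 8 reads against 78 in siCtrl. This was 0.735 RPM against 9.78, or 7.51% of control (95% interval 3.13 to 15.5%), and it passed the edgeR test described below (adjusted p = 0.0208). The gene stood at 0.741 RPM in siPAPα, 7.61 in siPAPγ, 3.96 in siStarPAP and 16.4 in siCtrl of batch 2, so the double KD and siPAPα were the lowest. The loss was seen both at its 4 PASs in the 3′-most exon, from 17 reads to 4, and at its 6 intronic PASs, from 61 to 4. PAPOLG, which encodes PAPγ, had 5 reads in siCtrl and 6 in the double KD (0.627 and 0.551 RPM), too few to check PAPγ. TUT1 had 83 reads in siCtrl (10.4 RPM) and 168 in the double KD (15.4 RPM), a ratio of 1.48 (1.13 to 1.95). It was at 0.180 RPM in siStarPAP.

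Genes with over 50 reads across the pair numbered 10022, and a change of over 2-fold was taken as the cutoff for regulation. By this cutoff 1894 genes were lower (18.9%) and 1117 were higher (11.1%) in the double KD. The median log2 ratio was -0.12 (-0.14 to -0.09, order-statistic range over genes), and the middle 50% of genes lay between -0.78 and 0.49. The balance of lower to higher genes depended on the scaling. TMM factors shifted every log2 ratio by 0.16 and gave 1502 lower and 1478 higher genes. DESeq2 size factors shifted them by 0.17 and gave 1496 and 1497, whereas scaling to all PASS reads of each library shifted them by -0.27 and gave 2656 and 700. Which genes stand above or below the typical gene is the same under all of these scalings, so groups below are given relative to the median of all genes. In bulk RNA, fewer cells of a type and less RNA per cell cannot be told apart.

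**Figure D1:**
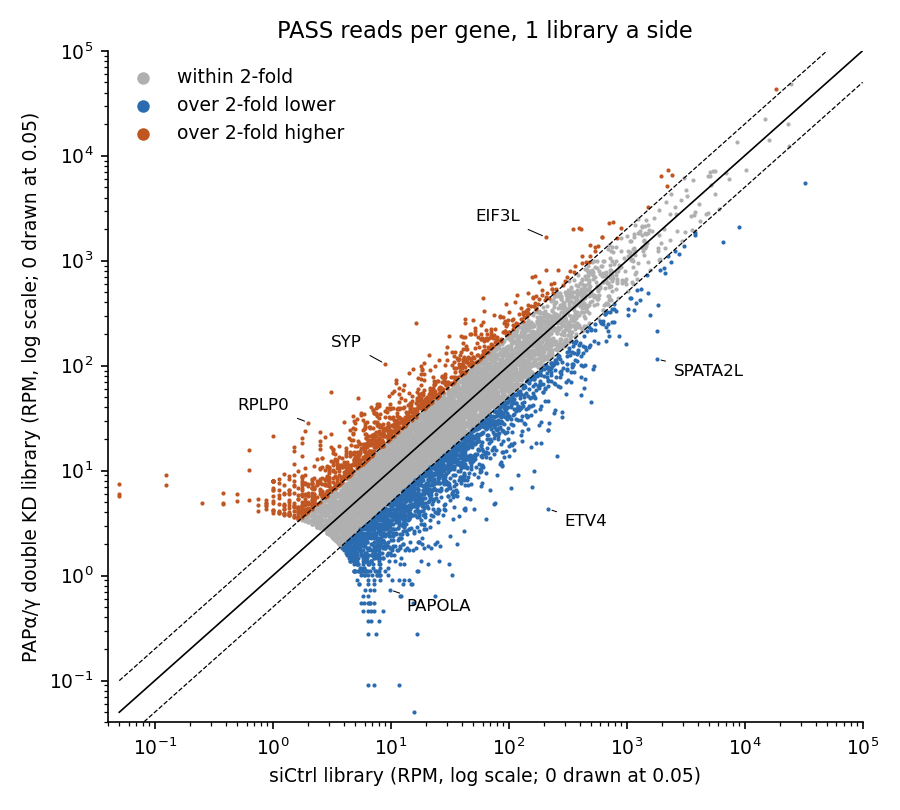
RPM of each gene with over 50 reads in the siCtrl library (x axis) and the double KD library (y axis), both on log scales with 0 drawn at 0.05; each point is 1 gene, the solid line marks equal values and the dashed lines a 2-fold change. More points lie below the lower dashed line (1894) than above the upper (1117), and PAPOLA stands at 9.78 and 0.735 RPM.

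The plot of RPM by gene shows that points past the cutoff occur at all levels. Of the genes in the lowest 25% by reads, 23.5% were over 2-fold lower and 13.5% higher, with a median log2 ratio of -0.20. In the highest 25%, 14.0% were lower and 10.1% higher, with a median of -0.00. Counting error is larger at few reads, which widens the ratios of the lowest genes. The 216 noncoding genes (RefSeq NR transcripts) had a median of -0.05, and the 9806 mRNA genes one of -0.12. Their order was turned around with siCtrl of batch 2, where the noncoding median was 0.52 below that of mRNAs. Genes with at least 4 PASs had a median of -0.19 and genes with 1 PAS one of -0.06.

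By the share of genes past 2-fold, the double KD stood closer to siPAPα, siPAPγ and also siStarPAP than to siCtrl (18.9% lower, 11.1% higher). It was closest to siPAPα and siPAPγ. Against siPAPα, 805 of 10616 genes (7.58%) were over 2-fold lower and 434 (4.09%) higher in the double KD. Against siPAPγ, 847 of 10030 (8.44%) were lower and 336 (3.35%) higher. Against siStarPAP, 859 of 10041 genes (8.55%) were lower and 1631 (16.2%) higher, with a median log2 ratio of 0.22. None of these pairs has a replicate, and depth and library differ with the siRNA in each. Against both siCtrl libraries, 998 of the 9890 genes (10.1%) were over 2-fold lower and 510 (5.16%) were over 2-fold higher. A fit of edgeR over the 7 libraries with a batch term, in which the lone double KD library is assumed to vary like siCtrl and siStarPAP, tested 12779 genes. It called 321 lower (2.51%) and 380 higher (2.97%) at a Benjamini-Hochberg adjusted p of 0.05, and it rests on 1 residual degree of freedom. The double KD was placed in batch 1 for this fit, since its protocol is 3′READS and its table holds nearly the same siCtrl counts as that of batch 1, although no label gives its batch. Without the batch term edgeR called 0 lower and 0 higher genes (107 and 30 at an unadjusted p under 0.05), and DESeq2 with the batch term called 174 and 215, so each edgeR call below depends on the batch term.

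Of the 12 falls whose interval stood farthest from no change, all 12 were over 2-fold lower against both siCtrl libraries. They were picked by their ratio to siCtrl of the pair, so siCtrl of batch 2 alone adds to that choice. The edgeR fit uses the same pair and is no separate check of genes picked this way. STC1, the calcium and phosphate regulating hormone stanniocalcin 1, had 125 reads in siCtrl (15.7 RPM) and 0 in the double KD, at least 56.9-fold lower by a floor of 3 reads in the double KD. It was listed at 0 in siPAPα too, at 0.807 RPM in siPAPγ, at 1.35 in siStarPAP and at 7.27 in siCtrl of batch 2. Every library with a PAP siRNA in batch 1 was thus below both siCtrl libraries. ETV4, an ETS family transcription factor, fell from 1720 reads to 47 (216 to 4.32 RPM), 50.0-fold (37.4 to 68.3). Its level was 7.04 RPM in siPAPα, 19.1 in siPAPγ, 34.4 in siStarPAP and 77.8 in siCtrl of batch 2, so the double KD was the lowest of these. SPATA2L had the most reads among the 12, with 14417 in siCtrl and 1258 in the double KD (1808 and 116 RPM), 15.6-fold lower (14.8 to 16.6). It stood at 152, 272 and 285 RPM in siPAPα, siPAPγ and siStarPAP, with 449 in siCtrl of batch 2.

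Homeobox genes and secreted factors were among the others. GSC, a homeobox factor of the early embryo, went from 1307 reads to 109 (164 to 10.0 RPM, 16.4-fold lower). BARX1, another homeobox gene, went from 93 reads to 1, a ratio of 127-fold whose interval, at 1 read, ran from 22.2 to 5069. METRN, the secreted neurotrophic factor meteorin, went from 265 reads to 11 (33.2 to 1.01 RPM, 32.9-fold lower). CALCB, which encodes the neuropeptide beta-CGRP, went from 1260 to 76 (158 to 6.98 RPM, 22.6-fold lower) and had 372 RPM in siCtrl of batch 2. These 4 were lower in the double KD than in either siCtrl library, and GSC alone of them stood lower in siPAPα (7.04 RPM) than in the double KD.

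The remaining falls were CCDC85B (2055 reads to 151, 18.6-fold lower), BRI3BP (250 to 14, 24.4-fold), FAM198A (189 to 7, 36.9-fold), KIAA0889 (134 to 3, 61.0-fold with an interval of 20.4 to 299) and C12orf53 (57 to 1, 77.8-fold with an interval of 13.4 to 3127). C12orf53 did not pass the edgeR test (adjusted p = 0.0515). BRI3BP was the fall that stood nearest to control in the KD of each PAP alone. It had 17.8 RPM in siPAPα, 22.2 in siPAPγ and 16.5 in siStarPAP, against 31.4 in siCtrl and 1.29 in the double KD. Of the 12 genes, 7 have 1 PAS in the table, so that their fall is that of a PAS in the 3′-most exon.

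Of the 12 rises, picked in the same way, 6 were over 2-fold higher than both siCtrl libraries. EIF3L, a subunit of translation initiation factor eIF3, had the most reads, with 1660 in siCtrl and 18177 in the double KD (208 and 1669 RPM), 8.02-fold higher (7.63 to 8.44). It stood at 522 RPM in siPAPα, 1290.1 in siPAPγ, 607 in siStarPAP and 7.27 in siCtrl of batch 2. The double KD was thus the highest library for EIF3L and siCtrl of batch 2 the lowest. SYP, which encodes the synaptic vesicle protein synaptophysin, went from 72 reads to 1130 (9.03 to 104 RPM), 11.5-fold higher (9.05 to 14.8). It was at 80.4 RPM in siPAPα but at 10.1 in siPAPγ, 4.14 in siStarPAP and 9.46 in siCtrl of batch 2. ARL2, a small GTPase of tubulin folding, went from 25 reads to 609 (3.14 to 55.9 RPM), 17.8-fold higher (12.0 to 27.8), with 49.5 RPM in siPAPα and 42.8 in siPAPγ.

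CPS1, the mitochondrial enzyme that starts the urea cycle, had 0 reads in siCtrl and 82 in the double KD (7.53 RPM), at least 20.02-fold higher. It had 5.37 RPM in siPAPα, 5.19 in siPAPγ, 3.15 in siStarPAP and 1.45 in siCtrl of batch 2. LINC00116 (0 to 66 reads, at least 16.1-fold) and SCG3, a granin of secretory granules (0 to 63 reads, at least 15.4-fold), were not detected in siCtrl either. SYT4, a synaptotagmin of secretory vesicles, went from 1 read to 100, a ratio of 73.2 (12.8 to 2921). TRIM67, a ubiquitin ligase with a neuronal role, went from 1 to 79, a ratio of 57.9 (10.1 to 2314), and did not pass the edgeR test (adjusted p = 0.0923). SYT4, SCG3 and TRIM67 were below 4 RPM in siPAPα, siPAPγ and siStarPAP, and the double KD held their highest level. SYT4 and SCG3 were not listed in the table of batch 2.

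The other 4 rises did not stand above siCtrl of batch 2 by over 2-fold. ARMC5 (130 reads to 2754, 16.3 to 253 RPM) had 283 RPM there, CYB5A (5 to 170 reads, 0.627 to 15.6 RPM) had 210, and RPLP0 (16 to 313 reads, 2.01 to 28.7 RPM) had 144. MMP24 (8 to 233 reads, 1.00 to 21.4 RPM) had 15.6 RPM in that control. ARMC5, CYB5A, the electron carrier cytochrome b5, and RPLP0, the ribosomal stalk protein P0, were thus higher in siCtrl of batch 2 than in the double KD. At the cutoff, FAM49A (63 to 43 reads) lay just past it and SYNJ2 (164 to 112) just short of it among the lower genes. MYBL2 (6632 to 18116 reads) lay just past it and TET3 (26 to 71) just short of it among the higher genes.

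**Figure D2:**
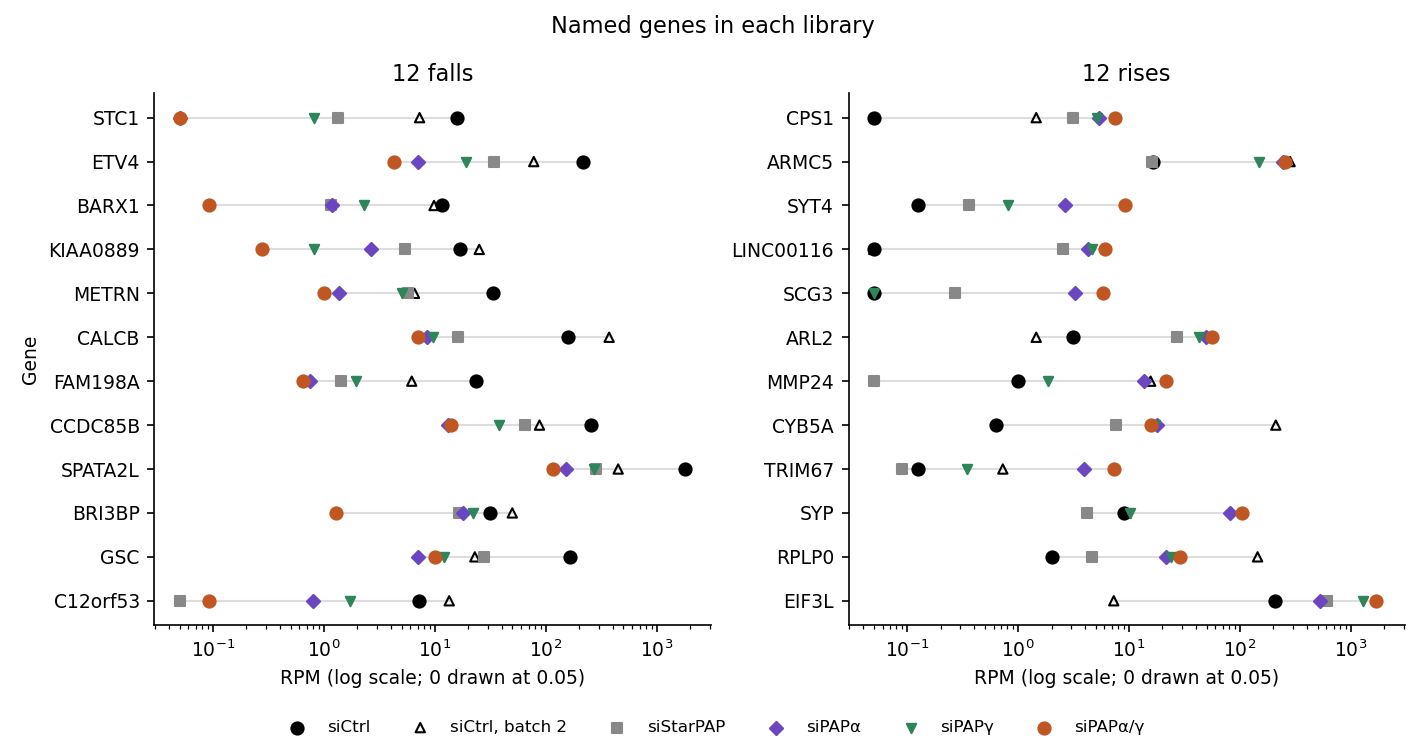
RPM (x axis, log scale, 0 drawn at 0.05) of the 12 named falls (left) and 12 named rises (right) in siCtrl, siCtrl of batch 2, siStarPAP, siPAPα, siPAPγ and the double KD, 1 symbol a library and 1 row a gene, with a grey line over their range. For all 12 falls the double KD lies below both siCtrl symbols, and for EIF3L, ETV4 and SYP the siPAPα and siPAPγ symbols lie at different distances from it.

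The plot of the named genes by library shows that siPAPα lay nearer to the double KD than siPAPγ did for ETV4 and SYP, and farther for EIF3L. These libraries share siCtrl, so their values are given side by side only.

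Gene lists were then read against the background of 18.9% lower and 11.1% higher genes. The order-statistic range of a list's median left out the median of all genes only for cytosolic ribosomal proteins, OXPHOS subunits, translation factors and immediate early genes. The offsets of the other lists lie within the spread of their members. Among the machinery of 3′ end formation, 8 of 9 genes of CstF, CFI and CFII had over 50 reads. Their median log2 ratio was 0.53 (-0.37 to 1.75), 0.65 above that of all genes. CSTF1 (146 to 493 RPM, 3.37-fold higher) and CSTF3 (97.2 to 247 RPM, 2.55-fold higher), subunits of the CstF complex that binds downstream of the site, were the 2 higher members, and both passed the edgeR test. CSTF1 stood at 433 RPM in siPAPα and 397 in siPAPγ, and at 38.2 in siCtrl of batch 2. CSTF3 had 192 RPM in siCtrl of batch 2, so its rise was not past 2-fold against that control. NUDT21 (21.4 to 16.6 RPM), the CFI subunit that binds UGUA, and PCF11 (15.6 to 14.0 RPM) of CFII did not pass the cutoff. No member was over 2-fold lower against siCtrl of the pair. In siCtrl of batch 2, CSTF2 (80.8 RPM), NUDT21 (163) and PCF11 (61.8) stood above their level in the double KD, and the other measured members below it. The list was 0.94 above all genes with siCtrl of batch 2.

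In CPSF and its partners, 10 of 11 members were measured, of which 3 were lower and 1 higher, with a median of -0.43, 0.31 below all genes and 1.41 below them with siCtrl of batch 2. CPSF3, the endonuclease that makes the cut, went from 194 to 56.3 RPM (3.44-fold lower) and passed the edgeR test. SYMPK, the scaffold symplekin, went from 23.3 to 8.17 RPM (2.85-fold lower) and did not. CPSF1, the largest CPSF subunit, went the other way, from 16.7 to 55.6 RPM (3.33-fold higher, also past the edgeR test), but siCtrl of batch 2 held 530 RPM of it. CPSF3 had 596 RPM in that control.

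Among poly(A) polymerases and terminal transferases, the siRNA target PAPOLA included, 10 of 13 were measured, with a median of 0.06. The list was 0.18 above all genes, but 0.16 below them with siCtrl of batch 2. PAPOLA and PAPD5, a non-canonical polymerase, were lower, PAPD5 from 18.9 to 3.77 RPM. FAM46A, now TENT5A, was higher, from 21.9 to 57.5 RPM, and neither it nor PAPD5 passed the edgeR test. In siCtrl of batch 2, PAPD5 had 5.09 RPM and FAM46A 48.4, so neither was past 2-fold against that control. Of the poly(A) binding proteins, PABPC4 went from 2.88 to 11.02 RPM and LARP1 from 4.77 to 22.6 RPM, both past the edgeR test, while PAIP2B went from 11.9 to 2.48 RPM. Against siCtrl of batch 2 all 3 lay the other way, with 185 RPM of PABPC4, 46.9 of LARP1 and 1.45 of PAIP2B there. That list had a median of -0.21, with 1 of 11 measured members lower and 2 higher, and was 0.09 below all genes, or 1.15 below with siCtrl of batch 2. Of 17 measured deadenylases and their adaptors, 2 were lower and 4 higher. Their 2 extremes were CNOT3, a CCR4-NOT subunit (51.9 to 18.5 RPM), and BTG2, an adaptor of the same complex (2.76 to 10.2 RPM). PAN2, the catalytic subunit of PAN2-PAN3, went from 1.76 to 5.97 RPM, but had 78.9 RPM in siCtrl of batch 2. The list median was 0.41 above all genes (0.15 with siCtrl of batch 2) but 0.49 below them among genes with over 200 reads. In the nuclear exosome and its adaptors, which degrade unprocessed RNA, 3 of 16 members were lower and 0 higher, with a median of -0.34, 0.22 below all genes and 1.06 below with siCtrl of batch 2. EXOSC4 went from 440 to 151 RPM and passed the edgeR test, and ZCCHC8 went from 28.5 to 8.27 RPM and did not.

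Cytosolic ribosomal proteins were the list with the highest median. Of 79 genes, 71 were measured, their median log2 ratio was 0.54 (0.32 to 0.69), and 11 were over 2-fold higher (15.5%) against 1 lower. Summed over the list, the level went from 74906 RPM in siCtrl to 115682 in the double KD, of which RPLP1 was the largest part. RPL13A, of the large subunit, went from 7.02 to 37.6 RPM (61.8 in siCtrl of batch 2) and passed the edgeR test, as did RPL10A, RPL23A, RPLP0, RPLP2 and RPS27A. The 1 lower member was RPL27 (17.4 to 2.11 RPM), which siCtrl of batch 2 held at 26457 RPM. The list was 0.66 above the median of all genes, and 1.70 above it with siCtrl of batch 2. Ribosomal protein genes have many processed pseudogenes, and only uniquely mapped reads were counted, so the level of a single member is uncertain.

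The other lists of the translation and energy machinery had medians from 0.01 to 0.42 above all genes. Of 44 measured translation factors, 8 were higher and 5 lower, with a median 0.42 above that of all genes (0.36 with siCtrl of batch 2). Beside EIF3L, EIF4G1, the scaffold of the cap-binding complex, went from 18.2 to 83.6 RPM (4.60-fold higher), and EIF5A went from 34.1 to 10.7 RPM. EIF3I, the most-read member, had 14872 and 22285 RPM. Of 73 OXPHOS subunits, 7 were higher and 4 lower, with a median 0.31 above all genes (0.38 with siCtrl of batch 2). ATP5G1, which encodes subunit c of ATP synthase, went from 42.5 to 276 RPM, and NDUFA1, a subunit of complex I, from 283 to 36.4 RPM, both past the edgeR test. Of 71 measured mitochondrial ribosomal proteins, 8 were lower and 3 higher, and the median was 0.01 above all genes, but 0.53 above them with siCtrl of batch 2. MRPL34 went from 857 to 191 RPM, and siCtrl of batch 2 had 90.2.

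Replication-dependent histone genes were the list with the lowest median. Their mRNAs normally end in a stem-loop without a poly(A) tail, so that PASS reads come from the polyadenylated minority, and only 8 of the 66 genes had over 50 reads. Of these, 5 were over 2-fold lower and 0 higher. The median log2 ratio was -1.88, with a range of -3.93 to 0.52 that holds the median of all genes. HIST1H1C, a linker histone, went from 602 reads to 53 (75.5 to 4.87 RPM), and HIST1H2AG from 428 to 100 RPM. HIST1H2BK, at 353 and 505 RPM, stood above the others. Of the 5 lower genes, 4 passed the edgeR test (HIST1H1C, HIST1H2AE, HIST1H2AG and HIST1H2BD). The list was 1.76 below all genes, and 0.83 below them with siCtrl of batch 2. Replacement histone genes, whose mRNAs carry a tail, had 5 of 10 members lower and 0 higher. Their median was 0.75 below all genes but only 0.08 below with siCtrl of batch 2. Of the lower members, H1FX and H2AFZ lay just past the cutoff, with ratios of 0.4988 and 0.4997. In siCtrl of batch 2, H1FX (67.7 RPM), H2AFY (136) and H2AFZ (25.1) lay below the double KD (101, 268 and 70.8). H2AFJ and H2AFY2 lay above it. H2AFJ went from 121 to 9.18 RPM and was the 1 member that passed the edgeR test, and H3F3B, the most-read member, had 1409 and 1139.8 RPM.

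**Figure D3:**
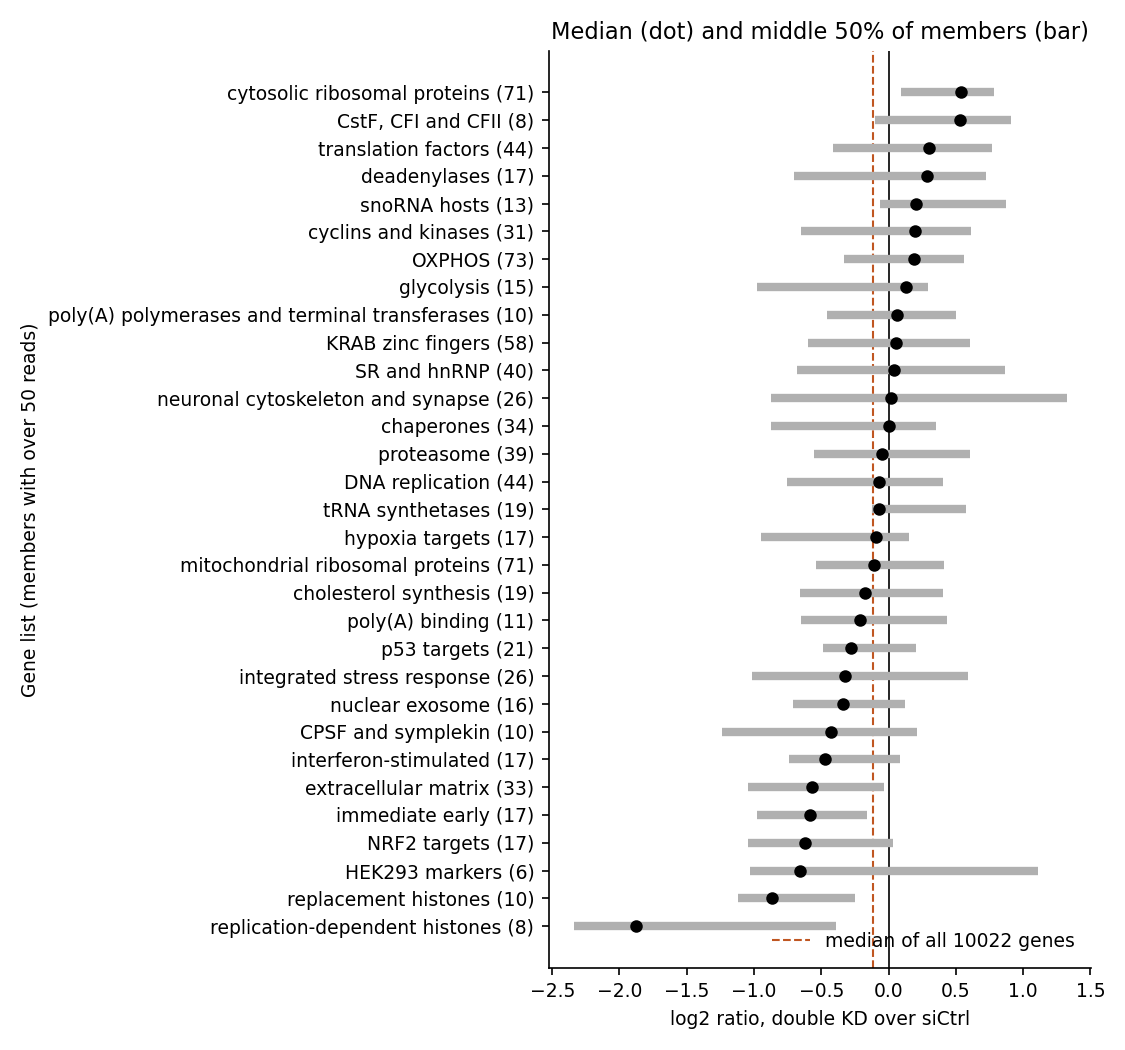
Median (dot) and middle 50% (bar) of the log2 ratio of the double KD over siCtrl for each gene list with at least 6 members of over 50 reads; the number measured is in brackets, the solid line marks no change and the dashed line the median of all 10022 genes. Cytosolic ribosomal proteins (0.54) and CstF, CFI and CFII (0.53) stand at the upper end and replication-dependent histones (-1.88) at the lower end.

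As the plot of the lists shows, the other medians lay between these ends, while single members lay far from them. Of the targets of the integrated stress response, 7 of 26 were lower and 3 higher, and the list was 0.21 below all genes, or 1.26 below with siCtrl of batch 2. STC2, a paralog of STC1, went from 64.3 to 9.55 RPM, and PPP1R15A, which restores eIF2 activity, from 308 to 69.9 RPM, both past the edgeR test, but siCtrl of batch 2 had 24.01 RPM of PPP1R15A. NRF2 targets, the antioxidant enzymes, had a median 0.50 below all genes (0.16 with siCtrl of batch 2), with 5 of 17 lower and 2 higher. HMOX1, heme oxygenase 1, went from 19.1 to 3.03 RPM and NQO1, the quinone reductase, from 35.9 to 6.52 (5.46 in siCtrl of batch 2), and none of the list passed the edgeR test. For p53 targets 2 of 21 were lower and 3 higher, with the death receptor TNFRSF10B at 6.52 and 0.551 RPM, and the list was 0.16 below all genes, or 0.59 below with siCtrl of batch 2. Of 17 interferon-stimulated genes, 3 were lower and 0 higher, and of 17 immediate early genes 4 were lower and 2 higher. FOSL1, an AP-1 subunit, went from 26.6 to 5.60 RPM, IER3 from 345 to 97.7 and the serum response factor SRF from 64.8 to 218, the last 2 past the edgeR test. In siCtrl of batch 2, FOSL1 had 3.27 RPM and IER3 55.3, both below the double KD. Both of these lists stood below all genes with siCtrl of the pair (by 0.35 and 0.47) and above them with siCtrl of batch 2 (by 0.66 and 1.01), so neither has a direction that holds for both controls.

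Lists of growth and metabolism were mixed. Of 44 measured DNA replication genes, 7 were lower and 2 higher, and the list was 0.05 above all genes, or 0.48 above with siCtrl of batch 2. RRM1, the large subunit of ribonucleotide reductase, went from 129 to 19.0 RPM, TYMS, thymidylate synthase, from 8988 to 2077 RPM and GINS1, of the replicative helicase, from 34.5 to 95.3 RPM, and all 3 passed the edgeR test. In siCtrl of batch 2, RRM1 had 13.5 RPM and TYMS 354, both below the double KD. Of 31 cyclins, their kinases and regulators, 5 were lower and 7 higher, CDK1 had 427 and 220 RPM, and 0 passed the edgeR test. Of 19 cholesterol synthesis genes 3 were lower and 4 higher, among them DHCR7, the last enzyme of the pathway (33.4 to 101 RPM), past the edgeR test. Of 17 hypoxia targets 4 were lower and 1 higher, with ERO1L at 59.3 and 11.4 RPM. Of 15 glycolysis genes 4 were lower and 0 higher, and GAPDH had 4101 and 3487 RPM. Of 39 proteasome genes 3 were lower and 4 higher, with PSMB3 at 8.03 and 1.01 RPM and PSMB6 at 419 and 1113. Of 34 chaperones 7 were lower and 2 higher, with DNAJB6 at 45.0 and 8.63 RPM. Of 19 tRNA synthetases 1 was lower and 1 higher. With siCtrl of batch 2 the median of glycolysis genes was 2.16 above all genes (0.25 with siCtrl of the pair), that of proteasome genes 0.56 (0.07) and that of tRNA synthetases 0.44 (0.05), while cyclins lay 0.14 above (0.32). Hypoxia targets lay 0.94 below with it (0.02 above with siCtrl of the pair), cholesterol genes 0.09 below (0.06 below) and chaperones 0.08 below (0.12 above).

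SR proteins and hnRNPs, which control splicing, had 9 of 40 members higher (22.5%) and 4 lower. PTBP2, the neuronal polypyrimidine tract binding protein, went from 42.1 to 2.66 RPM (15.8-fold lower), while its paralog PTBP1 was 2.73-fold higher. CIRBP, the cold-inducible RNA binding protein, went from 414 to 102 RPM and HNRPDL from 43.9 to 143 RPM. All 4 passed the edgeR test, and of PTBP2 siCtrl of batch 2 held 73.8 RPM. The median of this list was 0.16 above all genes, but 0.22 below them with siCtrl of batch 2. Host genes of snoRNAs had 3 of 13 members higher and 0 lower, SNHG3 from 62.6 to 142 RPM and SNHG5 from 39.0 to 88.5, of which siCtrl of batch 2 had 200 RPM. That list was 0.33 above all genes, or 0.02 above with siCtrl of batch 2. KRAB zinc finger genes had 8 of 58 lower and 8 higher, and stood 0.17 above all genes, but 0.54 below with siCtrl of batch 2.

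Extracellular matrix and adhesion genes had 9 of 33 measured members lower (27.3%) and 3 higher, with a median 0.45 below all genes (1.09 below with siCtrl of batch 2). TIMP2, an inhibitor of matrix proteases, went from 181 to 27.3 RPM, NID1, a basement membrane protein, from 44.02 to 10.7, LAMC1, a laminin chain, from 127 to 357, and ITGB1, integrin beta 1, from 4.77 to 33.0. These 4 passed the edgeR test, 2 in each direction, but siCtrl of batch 2 had 557 RPM of LAMC1. Of 26 genes of the neuronal cytoskeleton and synapse, 6 were lower and 7 higher, and SYP, NEFM, INA and SLIT2 were the 4 that edgeR called, all higher. INA, an intermediate filament, had 70.6 and 225 RPM, and 240 in siCtrl of batch 2. The list was 0.14 above all genes, but 0.40 below with siCtrl of batch 2.

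HEK293 cells are known to express epithelial keratins and neurofilament genes together. Of 8 markers of the line, among them also VIM, EPCAM, PAX2 and LHX1, 6 had over 50 reads. KRT18 was at 3795 and 1768 RPM, VIM at 217 and 73.8, NEFL at 53.5 and 30.6, and EPCAM at 18.8 and 13.2. KRT8 was at 1.63 and 5.42 RPM and NEFM at 4.39 and 20.4. PAX2 (8 and 3 reads) and LHX1 (16 and 4 reads) had too few reads, so not all of the line's markers were found. Of 12 markers of blood, liver, red cells, fibroblasts and endothelium, 1 had over 50 reads, APOA1 (5.52 and 1.10 RPM), and their summed level was 6.65 RPM in siCtrl and 2.11 in the double KD.

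The unit of regulation was then the PAS. Of 12994 PASs with over 50 reads, 2831 (21.8%) were over 2-fold lower and 2001 (15.4%) higher, with a median log2 ratio of -0.08. The change differed with location. The 11852 PASs in 3′-most exons had a median of -0.05, with 20.3% lower and 15.8% higher. The 1057 intronic PASs had a median of -0.53, with 37.1% lower and 10.7% higher, and the 85 in upstream exons one of -0.43, with 32.9% and 11.8%. Intronic PASs stood below those of 3′-most exons in every bin of reads, with medians of -0.61, -0.48 and -0.47 at up to 100, up to 500 and over 500 reads.

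Among the PASs of the 3′-most exon the last had the highest median. Where the exon had several PASs, the first had a median of -0.24 (25.04% lower, 11.3% higher), those between one of -0.12, and the last one of 0.13 (16.5% lower, 20.7% higher). PASs that were alone in the exon had a median of -0.01.

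**Figure D4:**
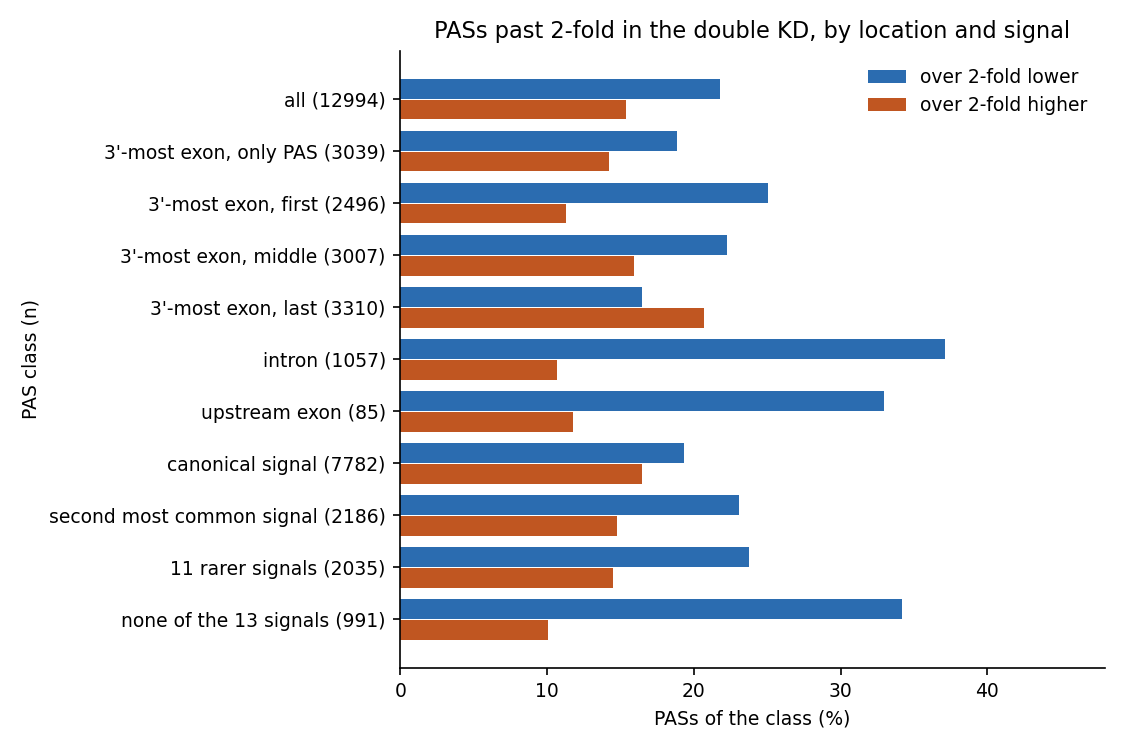
Share of PASs with over 50 reads (x axis, %) that were over 2-fold lower (blue) or higher (orange) in the double KD, by place in the gene and by poly(A) signal in the 40 nt before the site; the number of PASs is in brackets. Intronic PASs (37.1% lower, 10.7% higher) and PASs without a known signal (34.2% and 10.1%) had the most uneven bars, and the last PASs of the 3′-most exon were more often higher (20.7%) than lower (16.5%).

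The poly(A) signal was searched as 13 hexamers, AATAAA or else ATTAAA or else 1 of 11 rarer variants (TATAAA or AGTAAA or AAGAAA or AATATA or AATACA or CATAAA or GATAAA or AATGAA or TTTAAA or ACTAAA or AATAGA), on the transcript strand in the 40 nt before the site. PASs with AATAAA (7782) had a median of -0.02, those with ATTAAA (2186) one of -0.09 and those with another variant (2035) one of -0.21. The 991 PASs with none of the 13 had a median of -0.41, with 34.2% lower and 10.1% higher. As the plot by PAS class shows, this step from the canonical signal to none was seen beside that by location. Within the 3′-most exon the medians were 0.02 with AATAAA and -0.38 with none, and in introns -0.46 and -0.91. At over 500 reads they were 0.07 and -0.12. PASs whose 201 nt around the site held over 50% GC had a median of -0.27, and those under 30% GC one of -0.02.

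Motifs farther from the site were counted in the region from 100 to 41 nt before it, with overlaps between motifs allowed and on the transcript strand only. TGTA, the letters that CFI binds, was in 38.2% of all PASs, in 35.4% of those over 2-fold lower and in 42.5% of those higher. GGGG was in 14.8% of all PASs, in 17.3% of the lower and in 11.7% of the higher. TTTT was in 47.8%, 45.5% and 52.9%. ATA differed less, at 54.7%, 54.2% and 56.2%. A match is a description of these letters and not of a bound site.

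The same shift showed in the sum of reads. PASs upstream of the 3′-most exon held 5.01% of the sense reads in siCtrl (4.99 to 5.02%) and 3.63% in the double KD (3.62 to 3.64%). The share was 3.65% in siPAPα, 4.03% in siPAPγ, 4.94% in siStarPAP, 4.76% in siCtrl of batch 2 and 4.58% in siStarPAP of batch 2. The double KD thus had the lowest share of the 7 libraries, with siPAPα next to it, whose interval (3.64 to 3.66%) overlapped. Intronic PASs alone went from 4.75% to 3.42%. Reads at PASs with AATAAA went from 72.2% to 74.8% of all sense reads, those at PASs with none of the 13 from 4.31% to 3.23%.

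3′UTR-APA was measured in 5947 genes as the relative expression difference (RED), the change in the log2 ratio of distal to proximal reads of the 2 most-read PASs of the 3′-most exon. It was past 2-fold toward the distal PAS, a longer 3′UTR, in 2186 genes (36.8%) and toward the proximal PAS in 1335 (22.4%), with a median RED of 0.40. With siCtrl of batch 2, matched by PAS in 3960 genes, 1609 (40.6%) were past it toward the distal and 1347 (34.02%) toward the proximal PAS, with a median of 0.30, so the excess of lengthened genes was smaller. The shift grew with the distance between the PASs. At up to 100 nt the median RED was 0.04 with 30.3% lengthened and 26.1% shortened, beyond that and up to 500 nt it was 0.19, from there to 2000 nt 0.56, and at over 2000 nt 0.75 with 45.7% and 20.2%. It also differed with the signals of the pair. Where the distal PAS alone had AATAAA the median RED was 0.66, where both had it 0.39, where neither had it 0.34, and where the proximal PAS alone had it -0.01. At the level of the whole gene, the median log2 ratio was -0.08 in lengthened, -0.23 in shortened and -0.08 in the other genes.

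**Figure D5:**
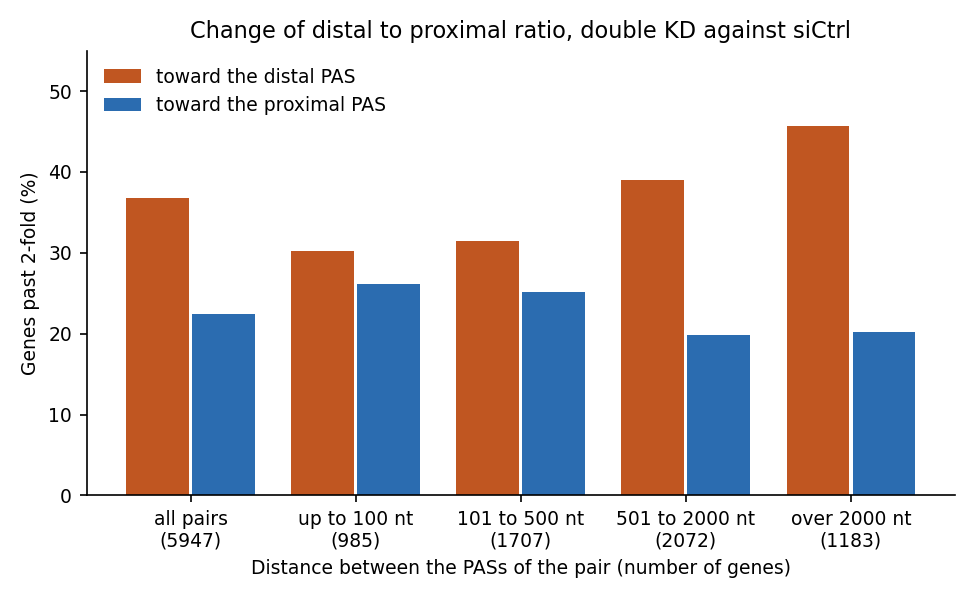
Share of genes (y axis, %) whose distal to proximal read ratio changed by over 2-fold toward the distal (orange) or the proximal PAS (blue) in the double KD, for all pairs and by the distance between the PASs of the pair (x axis, number of genes in brackets). The bars lie near each other at up to 100 nt (30.3% and 26.1%) and apart at over 2000 nt (45.7% and 20.2%).

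The plot by distance between PASs covers all pairs, and the genes named next are those with the largest RED each way, at any distance. ATP2B4, a plasma membrane calcium pump, had 64 proximal and 145 distal reads in siCtrl, and 0 and 205 in the double KD, with the PASs 3762 nt apart. Its distal share was 69.4% (62.7 to 75.5%) in siCtrl, 100% in the double KD, beside 94.1% in siPAPα and 93.0% in siPAPγ. In siCtrl of batch 2 the distal PAS had 130 reads and the proximal PAS was not listed, so that control did not show the proximal use of siCtrl of the pair. DNAJB12, a chaperone of the endoplasmic reticulum, had 207 proximal and 83 distal reads in siCtrl, and 5 and 201 in the double KD. Its distal share went from 28.6% to 97.6%, with 91.0% in siPAPα and 64.9% in siPAPγ. Here too siCtrl of batch 2 had reads at the distal PAS (83) and no listed proximal PAS. FADS1, a fatty acid desaturase, had 171 and 194 reads in siCtrl, and 5 and 251 in the double KD. Its distal share went from 53.2% to 98.0%, with 94.4% in siPAPα and 83.6% in siPAPγ, but siCtrl of batch 2 had 99.7%. In XPA, a DNA repair factor, and in the chloride transporter gene CLCN5 the proximal PAS held 16 and 5 reads in siCtrl and 0 in the double KD, and the distal share was above 96% in both libraries.

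Of the genes that shifted the other way, SMC1A, a subunit of cohesin, had 346 proximal and 413 distal reads in siCtrl, and 478 and 18 in the double KD. Its distal share went from 54.4% to 3.63%, with 6.33% in siPAPα, 5.98% in siPAPγ and 54.5% in siCtrl of batch 2. All 3 KDs of canonical PAPs thus stood apart from both controls, although siCtrl of batch 2 had only 18 distal and 15 proximal reads. The distal PAS of SMC1A, 1842 nt beyond the proximal one, had none of the 13 hexamers. LOC100507217 went from 499 and 92 reads to 422 and 0, a distal share of 15.6% against 0%, with 2.95% in siPAPα and 8.87% in siCtrl of batch 2. MOCS3, of molybdenum cofactor synthesis, gained 36 reads at a proximal PAS that had 0 in siCtrl, and its distal share went from 100% to 89.3%, while it was 90.7% in siCtrl of batch 2. In C16orf53 the proximal PAS went from 2 reads to 43 beside 376 and 185 distal reads. In ATP6V0A1 the distal PAS held 5 of 17729 reads in siCtrl and 0 of 79352 in the double KD, so that its large RED rests on 5 reads.

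Upstream sites were set against the 3′-most exon within each gene (UR-APA). Of 4088 genes, 1946 (47.6%) used upstream PASs over 2-fold less in the double KD and 820 (20.1%) over 2-fold more, with a median change of -0.88 on the log2 scale. With at least 50 upstream reads over the pair, 487 of 1181 genes were lower and 167 higher, with a median of -0.63. MOV10, an RNA helicase, had 118 upstream and 82 3′-most exon reads in siCtrl, and 0 and 168 in the double KD. Its upstream share went from 59.0% to 0%, with 14.6% in siPAPα and 6.29% in siPAPγ. SMU1, a splicing factor, went from 84 upstream and 19 downstream reads to 0 and 67, a share of 81.6% against 0%, with 24.4% in siPAPα and 27.1% in siPAPγ. INPP5K, an inositol phosphatase, went from 173 and 218 reads to 1 and 234, a share of 44.3% against 0.426%. For these 3 genes siPAPα and siPAPγ lay between siCtrl and the double KD. PLAC2 went from 166 and 0 reads to 9 and 5, a share of 100% against 64.3% (35.1 to 87.2%). It was at 97.6% in siPAPα and 93.5% in siPAPγ.

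Of the genes with more upstream use, DTNB, a dystrobrevin, had 40 upstream and 3 downstream reads in siCtrl, and 200 and 0 in the double KD. SYT14, a synaptotagmin, had 16 and 2, then 121 and 0. PPFIA2, a liprin of the synapse, had 49 and 13, then 72 and 0, and the adrenergic receptor gene ADRA1B 30 and 19, then 33 and 0. In all 4 the downstream PASs were at 0 in the double KD, where 3 reads are the limit that a count of 0 allows. For DTNB, PPFIA2 and ADRA1B the upstream share was higher in siPAPα and siPAPγ than in siCtrl. For SYT14 it was lower, at 78.0% and 71.7% against 88.9% in siCtrl. Intervals of siCtrl and the double KD overlapped for SYT14 (65.3 to 98.6% and 97.0 to 100%) and DTNB (80.9 to 98.5% and 98.2 to 100%).

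As a share of the gene's sense reads, 2920 of 23881 isoforms (12.2%) gained over 10 percentage points and 2715 (11.4%) lost as much, in 2844 of 5607 genes (50.7%). Last PASs of the 3′-most exon gained in 20.2% and lost in 8.69%, first PASs in 9.79% and 14.7%, and intronic PASs in 6.05% and 11.6%. With AATAAA, 15.6% gained and 11.9% lost, and with none of the 13 hexamers 6.56% and 10.6%.

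The 30 nt that end at the site are shown for the PASs with the largest losses and gains, since they hold most of the 40 nt in which the hexamer was searched. They are read from GRCh37 (hg19) on the strand of the transcript, 5′ to 3′, and capitals mark the hexamer. The losses were
SLC27A4, chr9:131123473-131123502, plus strand: ggccAATAAActctgccttgagtcctccta
NPM1, 3′-most exon, chr5:170837856-170837885, plus strand: atgtgaAATAAAactcagtattttaataaa
ADCY3, chr2:25042142-25042171, minus strand: tgttaAATACActttccgatattgccttgc
DNAJB12, chr10:74093839-74093868, minus strand: acttTTTAAActctgcagggatttggttaa
CABLES1, chr18:20837744-20837773, plus strand: actTTTAAAagataccctcattgtgtcaaa
RNF126, chr19:644370-644399, minus strand: gtctgctgtaacaaaagaccacaaagttga
and the gains were
NPM1, intron, chr5:170833706-170833735, plus strand: gctcAATAAAtatttgaatgcatcaattaa
ADCY3, chr2:25042038-25042067, minus strand: gttttATTAAAagctttattcaacttgaaa
GTPBP1, chr22:39129556-39129585, plus strand: ggatgcagAATAAAattgttaatccaatca
RAB31, chr18:9862519-9862548, plus strand: gattcatactAATAAAtattttcagtttta
RNF126, chr19:647810-647839, minus strand: tgctttgaAATAAAcggacgtttgagctca
MTA3, chr2:42936655-42936684, plus strand: gtttaAATAAAatttgccaatttacactaa

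RNF126, a ubiquitin ligase, and ADCY3, an adenylyl cyclase, appear on both sides. The last PAS of RNF126, with no hexamer in the letters shown, had 2872 reads in siCtrl and 204 in the double KD, and its share went from 87.2% (86.0 to 88.3%) to 35.5% (31.6 to 39.5%). Its first PAS, with AATAAA, had 420 and 367 reads, so the gain from 12.8% to 63.8% came with a fall of the other PAS and of the gene. The last PAS had 56.4% in siPAPα and 49.0% in siPAPγ, but 20.7% in siCtrl of batch 2. In ADCY3 the PAS with AATACA went from 424 reads to 184 (89.5% to 35.0%), and the last PAS, with ATTAAA, from 31 to 323 (6.54% to 61.5%). That last PAS held 64.4% in siPAPα, 60.4% in siPAPγ and 10.8% in siCtrl of batch 2, where the gene had only 37 reads. At this PAS the 3 KDs stood apart from both controls. The PAS with AATACA held 35.6% in siPAPα, 39.6% in siPAPγ and 48.6% in siCtrl of batch 2. There siCtrl of batch 2 lay nearer to the KDs than to siCtrl of the pair.

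NPM1, the nucleolar chaperone nucleophosmin, was an exception to the classes. Its PAS in the 3′-most exon had 606 reads in siCtrl and 465 in the double KD, while an intronic PAS with AATAAA had 79 and 1007. The intronic share went from 11.5% (9.24 to 14.2%) to 68.4% (66.0 to 70.8%), and siCtrl of batch 2 had 51.9% of 418 reads. The largest loss was the first PAS of SLC27A4, a fatty acid transporter, whose letters hold AATAAA. It went from 308 reads to 63 (79.0% to 16.7%), with 34.8% in siPAPα, 46.3% in siPAPγ and 64.3% in siCtrl of batch 2. The PASs of DNAJB12 (53.6% to 1.37%) and CABLES1, a CDK adaptor (59.5% to 7.28%), both carried TTTAAA. The CABLES1 PAS had 31.9% in siPAPα, 23.8% in siPAPγ and 27.3% of 304 reads in siCtrl of batch 2, so that control lay beside the KDs of single PAPs. In siCtrl of batch 2 the DNAJB12 PAS was not listed, although the gene had 217 reads.

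GTPBP1, MTA3 and RAB31 gained at their last PAS, in each case with AATAAA. In GTPBP1, a GTPase, it went from 95 reads to 232 (10.9% to 63.2%), with 73.3% in siPAPα and 38.5% in siPAPγ. In MTA3, a NuRD subunit, it went from 395 to 658 reads (17.7% to 68.0%), with 67.0% in siPAPα and 46% in siPAPγ. In RAB31, a GTPase of vesicle transport, it went from 149 to 842 reads (26.9% to 78.4%), with 75.2% and 74.1%. The control of batch 2 had 16%, 35.4% and 55.6% for these PASs, below the double KD in all 3.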

How the data were processed

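HEK293 cells were profiled by 3′READS, and per the labels the reads were mapped to hg19 with Bowtie2. The authors kept uniquely mapped reads (MAPQ above 10) with at least 2 untemplated Ts, clustered sites within 24 nt, required at least 2 PASS reads and over 5% of a gene's reads at a PAS, and deposited read counts per PAS and library, not normalized. Here, sense counts were summed per gene and scaled by the column totals. Each PAS was counted once in totals, although 400 PASs stand under more than 1 gene (3.18% and 2.98% of the reads). The siCtrl count equals that of the table of batch 1 at 32024 of 32137 shared PASs, and 0 columns were left without a sample.

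Log2 ratios had 1 read added to each count, and read ratios have exact conditional 95% intervals. The members and gene lists were chosen with earlier results of these data known. The text names the 12 falls and 12 rises whose interval stood farthest from no change, the 6 share losses and gains (at least 200 gene reads a library), the 5 largest RED shifts and the 4 largest UR-APA shifts each way, and, of each list, the extremes and the most-read member. Some genes are not reported here. edgeR 4.0.16 (quasi-likelihood, TMM, filterByExpr, siRNA and batch terms, two-sided), DESeq2 1.42.0, R 4.3.3, Python 3.11.15, scipy 1.17.1 and pysam 0.24.0 were used, and scripts were tested on simulated data. SAAP, the authors' APA test, was not run. Separate cultures are not stated, so edgeR p-values measure the spread between these libraries, which may be technical. Counts were of reads, not molecules.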

Additional observations from a re-analysis of the deposited data

Results flagged for a closer look

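PASs antisense to the gene and upstream of its promoter enter no comparison above. At PAPOLA, 2 such PASs held 136 reads in siCtrl (17.1 RPM) and 277 in the double KD (25.4 RPM). The latter was flagged as a signal outside the main measurement, but its rise over siCtrl was short of the 2-fold cutoff. In the same pair the sense reads of PAPOLA went from 78 to 8.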

How the results depend on the processing

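No paired analysis was possible because each side held 1 library. Counts are lower then higher genes unless named. Genes: 1006 and 681 at over 200 reads, 3883 and 2242 without a minimum, 3119 and 2203 past 1.5-fold, 461 and 208 past 4-fold, 1122 and 570 with the interval wholly past 2-fold, 3238 and 2658 with siCtrl of batch 2, 998 and 510 against both controls (an alternative added after seeing the data), and 700 higher with PASS read totals. PASs: 4940 and 3304 at over 20 reads, 1157 and 943 at over 200, 18064 and 11625 without a minimum, 3463 higher past 1.5-fold, 890 and 459 past 4-fold, 1705 and 1006 with the interval wholly past 2-fold. The gene median turned to 0.045 with TMM and 0.051 with DESeq2 factors, by construction of these scalings, and was -0.39 with PASS read totals, -0.15, -0.050 and -0.20 at over 20 reads, over 200 reads and without a minimum, and -0.21 with siCtrl of batch 2. Noncoding minus mRNA was 0.08, and -0.52 with siCtrl of batch 2. The upstream share differed by -1.37 points, by -1.14 among PASs with over 50 reads, by -1.53 as a mean over genes and by -1.13 with siCtrl of batch 2. Lengthened and shortened genes were 1247 and 699 at over 200 reads, 721 and 355 with the interval wholly past 2-fold (added after seeing the data), and 865 shortened with the first and last PAS, and 1609 and 1347 with siCtrl of batch 2. UR-APA gave 389 higher and 1009 lower at over 200 reads, and 167 and 487 with at least 50 upstream reads (added after seeing the data). Isoform gains and losses were 1098 and 969 at 20 points, and 892 and 799 at 200 reads. edgeR without the batch term called 0 and 0 (107 and 30 at an unadjusted p under 0.05), and DESeq2 174 and 215. Of 155 list medians under alternatives, 138 stayed within the range of the list, 16 moved, and immediate early genes turned to 1.01 with siCtrl of batch 2. The cause of these moves was not tested. With 1 library a side the precision of a ratio is that of counting alone, and PAPOLG could not be read at this depth.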

Other observations

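Antisense PASs upstream of promoters had 0.610% of all reads counted in siCtrl and 0.532% in the double KD. Of the 303 with over 50 reads, 91 were over 2-fold lower and 52 higher, with a median log2 ratio of -0.28.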
